A study of Mus musculus with 11 samples.

Results

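Gbx2, Tcf7l2, Lef1, Lhx2, Lhx9, Prox1 and Etv1 are genes for transcription factors that mark or shape relay neurons of the thalamus. They were chosen by name, with earlier results of these data known, and their gene identifiers were found through the mouse annotation. All 7 were among the 54752 genes in the files, the 33170 genes with at least 1 count and the 15907 genes tested. RNA-seq was done on thalamic neurons sorted from the dorsolateral geniculate nucleus (dLG, vision, 4 libraries), from the ventral posteromedial nucleus (VPM, whisker and face touch, 4 libraries) and from the ventral part of the medial geniculate (MGv, hearing, 3 libraries), and the question addressed here is how these genes differ between the nuclei. All mice were ICR/CD-1 of genotype Gbx2CreER-IRES-EGFP/+::R26lsl-tdTomato/+ at postnatal day 0, and each library pooled 4 brains. A tamoxifen-inducible Cre driven by Gbx2 turned on the red protein tdTomato, and the cells were sorted by its fluorescence. Every library therefore carries the Gbx2 driver allele, samples only cells that had used the driver, and is no independent measure of which cells use Gbx2. The labels do not say whether the driver allele itself makes Gbx2 reads.

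Gbx2 is a homeodomain factor of newly born thalamic neurons and is needed for their differentiation and for the growth of their axons to the cortex. Tcf7l2 and Lef1 bind DNA through an HMG box and recruit beta-catenin, the carrier of canonical Wnt signals, or Tle corepressors in its absence. Lhx2 and Lhx9 are LIM-homeodomain factors, which work in complexes built on Ldb proteins, and Lmo proteins compete for the same partners. Prox1 is a homeodomain factor related to Drosophila prospero, and Etv1 belongs to the ETS family.

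Both paralog pairs are close in sequence, so the most alike stretch of their coding sequence is shown to make clear how far reads could tell them apart. Between Lhx2 and Lhx9 this was a window of 180 coding bases in a LIM domain, with 147 bases identical (81.7%). The windows lie in GRCm38 at chr2:38353509-38354623 (plus strand) and chr1:138838524-138839877 (minus strand), spans that include introns. Capitals mark bases that differ, and each sequence reads 5′ to 3′ along its gene.
Lhx2: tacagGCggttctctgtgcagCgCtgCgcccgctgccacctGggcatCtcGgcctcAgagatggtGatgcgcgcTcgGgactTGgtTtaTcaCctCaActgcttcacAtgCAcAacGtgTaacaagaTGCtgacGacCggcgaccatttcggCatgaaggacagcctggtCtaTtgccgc
Lhx9: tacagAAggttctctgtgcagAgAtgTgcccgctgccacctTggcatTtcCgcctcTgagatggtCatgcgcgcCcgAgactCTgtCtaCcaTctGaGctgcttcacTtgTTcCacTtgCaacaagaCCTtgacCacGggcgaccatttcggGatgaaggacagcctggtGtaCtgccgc

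In Tcf7l2 and Lef1 the most alike window of 240 coding bases covers the DNA-binding HMG box, and 196 bases were identical (81.7%). They lie at chr19:55918928-55923910 and chr3:131194671-131204270, both on the plus strand of GRCm38 and again with introns inside the span.
Tcf7l2: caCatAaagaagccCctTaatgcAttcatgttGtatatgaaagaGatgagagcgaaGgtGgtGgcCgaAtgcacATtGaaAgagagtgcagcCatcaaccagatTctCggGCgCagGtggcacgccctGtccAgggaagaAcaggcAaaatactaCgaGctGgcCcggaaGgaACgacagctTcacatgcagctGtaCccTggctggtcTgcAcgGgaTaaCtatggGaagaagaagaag
Lef1: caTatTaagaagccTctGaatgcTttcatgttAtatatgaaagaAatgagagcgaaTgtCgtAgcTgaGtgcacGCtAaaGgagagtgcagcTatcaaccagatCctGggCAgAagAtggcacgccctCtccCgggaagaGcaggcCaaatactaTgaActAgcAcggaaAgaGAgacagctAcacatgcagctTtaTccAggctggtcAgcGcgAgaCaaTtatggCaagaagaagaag
The longest run shared anywhere in the coding sequences was 17 bases for Lhx2 and Lhx9 and 15 bases for Tcf7l2 and Lef1, against a read length of 50. No 50-base stretch of Lhx2 or Tcf7l2 occurred in any other annotated gene.

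The other members differ in how cleanly their reads could be assigned. Of the exon bases of Gbx2 (chr1:89927956-89931179, minus strand), 43.45% overlapped D130058E05Rik on the opposite strand. For Lef1 (chr3:131110471-131224356) the overlap was 13.75%, with Gm43352, and for Prox1 (chr1:190118035-190170714, minus strand) it was 1.585%, with Prox1os. The sources used here do not say that the counting used strand, so reads from these overlaps cannot be told apart. Etv1 (chr12:38779380-38870484) shared 1141 of its 13551 exonic 50-base stretches with Gm5454, which held 1 count in VPM replicate 2 and 0 counts in the 10 other libraries. Lhx2 lies at chr2:38339281-38369733, Lhx9 at chr1:138825186-138848577 (minus strand) and Tcf7l2 at chr19:55741820-55933654.

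Library totals ran from 10175653 to 23559130 counts, and the 3 MGv libraries, at 10175653 to 13164909, were the shallowest. A floor of 3 counts corresponded to 0.127 to 0.295 CPM (counts scaled to a library total of 1000000), so each member was above the floor in every library. Levels are CPM scaled by edgeR's TMM factors. In 1 library of each nucleus (dLG replicate 2, VPM replicate 3, MGv replicate 1) the heat-shock gene Hspa8 was at 3.05 to 5.56 CPM against 159 to 581 CPM in the other 8 libraries, so results were also computed without these 3. Pan-neuronal markers summed to 13900 to 19400 CPM in every library, while the markers of prethalamic and other GABAergic neurons summed to at most 5.5 CPM and those of cortical neurons to at most 5.15 CPM. One library, dLG replicate 3, held 514 CPM of blood genes against at most 18.2 CPM elsewhere.

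All 7 genes differed between the nuclei in edgeR's quasi-likelihood test for any difference, with Benjamini-Hochberg adjusted p from 5.77e-06 (Lhx9) to 0.00384 (Lef1), where 24.2% of all genes tested passed the threshold of 0.1. Because the genes were chosen with earlier results of these data known, shares and medians over all genes are given here and below as background only. They are no test of the 7 as a set. Gbx2, Tcf7l2 and Lhx2 were enriched in MGv, meaning higher there than in each of the other 2 nuclei, where 3.66% of all genes were so enriched. Lhx9 was enriched in dLG (2.04% of all genes) and Prox1 in VPM (2.41%). Lef1 was lower in MGv and Etv1 lower in dLG than in the other 2 nuclei. Lhx2, Lhx9 and Prox1 differed in all 3 contrasts, as did 1.79% of all genes. In pooled sorted cells, fewer cells expressing a gene and less RNA of it per cell cannot be told apart.

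**Figure D1:**
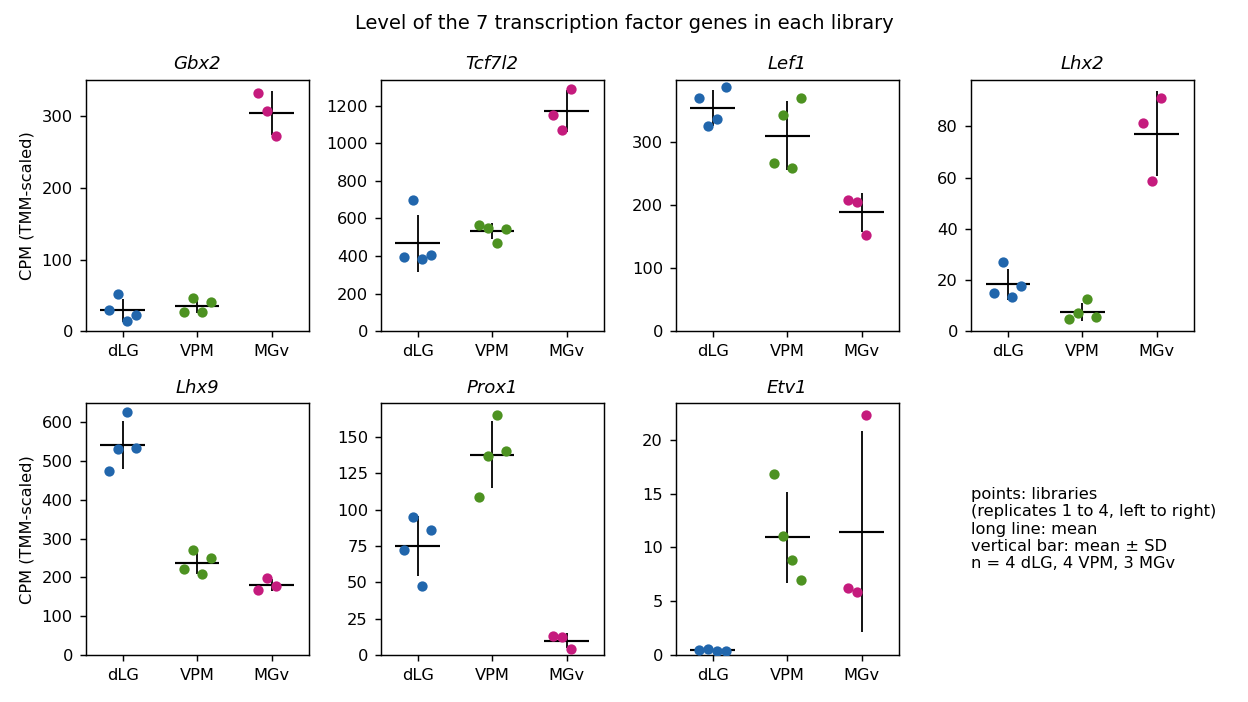
Level of each of the 7 genes in CPM (TMM-scaled, linear axes from 0) in 4 libraries each of dLG and VPM and 3 of MGv; points are libraries, long lines means and vertical bars ± SD. The 3 MGv libraries stand above the others for Gbx2 (272 to 333 CPM), Tcf7l2 and Lhx2, and below them for Lef1 and Prox1, while the dLG libraries stand highest for Lhx9 and lowest for Etv1.

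Between dLG and VPM, 4 of the 7 genes passed the threshold against 10.7% of all genes tested. Of these, 2 were higher in dLG (Lhx2 and Lhx9, against 4.97% of all genes) and 2 in VPM (Prox1 and Etv1, against 5.74%), and the same 4 had libraries that did not overlap, against 14.6% of all genes. The median absolute log2 fold change was 0.88 over the 7 genes and 0.27 over all genes. Between dLG and MGv all 7 passed, against 16.1%, and all 7 were separated, against 23.8%, with medians of 2.08 and 0.32. The 3 higher in dLG were Lef1, Lhx9 and Prox1 (against 8.61% of all genes), and the 4 higher in MGv were Gbx2, Tcf7l2, Lhx2 and Etv1 (against 7.49%). Between VPM and MGv 6 passed and were separated, against 19.0% and 25.1%, with medians of 1.14 and 0.36. Here 3 were higher in VPM, again Lef1, Lhx9 and Prox1 (against 10.4%), and 3 in MGv, namely Gbx2, Tcf7l2 and Lhx2 (against 8.56%). The dLG libraries serve in the first 2 contrasts, the VPM libraries in the first and last and the MGv libraries in the last 2, so the contrasts are not independent of each other. Without the 3 libraries of low Hspa8 the counts were 6, 7 and 5, and the shares of all genes were then 16.4%, 20.1% and 19.5%.

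**Figure D2:**
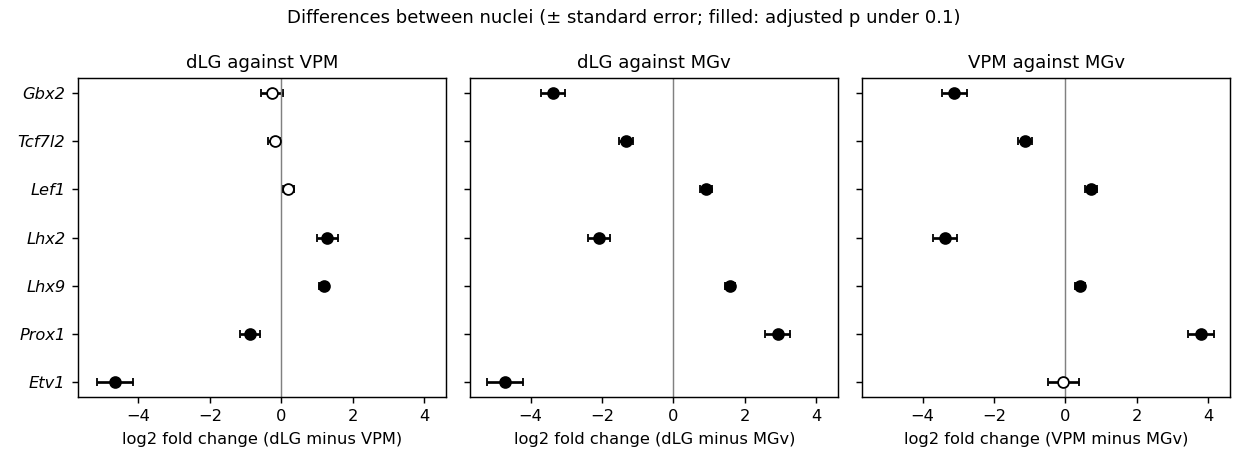
Log2 fold change of the 7 genes in the 3 contrasts, first nucleus minus second, with edgeR standard errors; filled points have an adjusted p under 0.1 and open points do not. Positive values mean higher in the first nucleus. Etv1 has the values farthest from 0 in both dLG contrasts (-4.65 and -4.71), and Prox1 in the contrast of VPM and MGv (3.79).

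Gbx2, the gene that drives the reporter, was at 29.4, 51.6, 14.2 and 22.3 CPM in dLG replicates 1 to 4, at 27.3, 45.7, 27.3 and 40.7 CPM in VPM and at 333, 308 and 272 CPM in MGv. The 3 MGv libraries were far above the rest, and dLG and VPM overlapped. It was 10.3-fold higher in MGv than in dLG (log2 fold change dLG minus MGv -3.37 ± 0.34 SE, edgeR adjusted p = 2.34e-05). Against VPM the difference was 8.62-fold (-3.11 ± 0.34 SE, edgeR adjusted p = 4.29e-05). The dLG and VPM means did not differ beyond the spread (-0.26 ± 0.30 SE, 95% confidence interval -0.96 to 0.44, edgeR adjusted p = 0.711). Without the 3 libraries of low Hspa8 that difference was -0.79, with edgeR adjusted p = 0.07. D130058E05Rik, which overlaps Gbx2, was itself at 3.16 ± 1.86 CPM in dLG, 6.45 ± 1.49 in VPM (SD, n = 4 each) and 17.7 ± 3.17 in MGv (SD, n = 3).

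Tcf7l2, which marks glutamatergic neurons of the thalamus and habenula, was the member with the most CPM in MGv, at 1150, 1070 and 1290 CPM in replicates 1 to 3. In dLG it was at 393, 696, 382 and 406 CPM and in VPM at 563, 552, 468 and 542 CPM. The lowest MGv library thus stood above the highest of the other 8, and dLG replicate 2 stood apart from the other dLG libraries. The difference was 2.49-fold against dLG (-1.32 ± 0.19 SE, edgeR adjusted p = 0.000442) and 2.2-fold against VPM (-1.14 ± 0.19 SE, edgeR adjusted p = 0.00144). Between dLG and VPM it was within the spread (-0.18 ± 0.18 SE, interval -0.59 to 0.23, edgeR adjusted p = 0.65). That call rested on dLG replicate 2, since without this library the difference was -0.43 with edgeR adjusted p = 0.0487, and without the 3 libraries of low Hspa8 it was -0.48 with edgeR adjusted p = 0.0115.

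Lef1, its relative, ran the other way. The dLG libraries held 370, 326, 338 and 388 CPM, the VPM libraries 268, 344, 260 and 370 CPM and the MGv libraries 209, 205 and 153 CPM. Every MGv library lay below every dLG and VPM library, and the latter overlapped. Lef1 was 1.88-fold higher in dLG than in MGv (0.91 ± 0.16 SE, edgeR adjusted p = 0.00209) and 1.64-fold higher in VPM than in MGv (0.72 ± 0.16 SE, edgeR adjusted p = 0.0103). The dLG and VPM levels were 0.20 ± 0.15 SE apart on the log2 scale (interval -0.14 to 0.53, edgeR adjusted p = 0.523). Per kb of exon, the ratio of Tcf7l2 to Lef1 was 1.34 ± 0.531 in dLG, 1.75 ± 0.277 in VPM (SD, n = 4 each) and 6.38 ± 1.76 in MGv (SD, n = 3), with ranges of 1.05 to 2.14, 1.47 to 2.11 and 5.23 to 8.41. Gm43352, which overlaps Lef1, was at 4.59 ± 2.11 CPM in MGv (SD, n = 3) against 8.45 ± 1.87 in dLG and 8.68 ± 1.41 in VPM (SD, n = 4 each).

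Lhx2, which acts on the fate and the axons of thalamic neurons, was at 81.3, 58.8 and 91.2 CPM in MGv, at 14.9, 26.9, 13.5 and 17.7 CPM in dLG and at 4.73, 7.05, 12.7 and 5.56 CPM in VPM. No 2 nuclei overlapped, in the order MGv, dLG, VPM. The gap between dLG and VPM was the narrowest, with VPM replicate 3 at 12.7 CPM just under dLG replicate 3 at 13.5 CPM. Lhx2 was 4.22-fold higher in MGv than in dLG (-2.08 ± 0.31 SE, edgeR adjusted p = 0.000615) and 10.3-fold higher in MGv than in VPM (-3.37 ± 0.33 SE, edgeR adjusted p = 2.05e-05). In dLG it was 2.44-fold higher than in VPM (1.29 ± 0.30 SE, edgeR adjusted p = 0.0178).

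Lhx9, the paralog of Lhx2, was at 475, 531, 626 and 534 CPM in dLG, 221, 270, 209 and 251 CPM in VPM and 167, 198 and 177 CPM in MGv. Again no 2 nuclei overlapped, but the order was dLG, VPM, MGv. Its level in dLG was 2.28-fold that in VPM (1.19 ± 0.13 SE, edgeR adjusted p = 5.52e-05) and 3.00-fold that in MGv (1.58 ± 0.14 SE, edgeR adjusted p = 1.03e-05). The step from VPM to MGv was small, at 1.32-fold (0.40 ± 0.14 SE, edgeR adjusted p = 0.0749), and passed the threshold in 13 of 24 alternatives. The p-value exceeded the threshold without MGv replicate 1, MGv replicate 3, VPM replicate 2 or VPM replicate 4, reaching at most 0.215, and without the 3 libraries of low Hspa8 (0.113). The progenitor marker list summed to 185 to 242 CPM in dLG, 122 to 146 CPM in VPM and 123 to 143 CPM in MGv, mostly through Sox2, a progenitor gene also found in thalamic neurons, at 158 ± 17.4 CPM in dLG (SD, n = 4). Of its 7 genes 6 were tested, and only Sox2 was called higher in dLG than in VPM, as were 4.97% of all genes. Against MGv, Sox2 and Vim were called higher in dLG, as were 8.61% of all genes. Nes, an intermediate filament gene of progenitors, was lower in dLG (-1.46 ± 0.28 SE, edgeR adjusted p = 0.00335), as were 7.49% of all genes. Top2a, Hes5 and Pax6 were not called in either dLG contrast, with Top2a, a gene of dividing cells, at -0.92 ± 0.47 SE against VPM and -0.47 ± 0.52 SE against MGv. Between VPM and MGv, Pax6 and Vim were called higher in VPM and Nes in MGv, beside 10.4% and 8.56% of all genes. The division marker Mki67, too low to be tested, was at 0.0537 ± 0.107 CPM in dLG (SD, n = 4). The part of progenitors in the level of Lhx9 was not tested.

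The balance of the paralogs changed with the nucleus. Per kb of exon, the ratio of Lhx2 to Lhx9 was 0.0737 ± 0.026 in dLG and 0.0706 ± 0.0412 in VPM (SD, n = 4 each) but 0.934 ± 0.255 in MGv (SD, n = 3). The MGv ratios ran from 0.642 to 1.11, above the highest ratio elsewhere, which was 0.132 in VPM. In MGv, then, the LIM-homeodomain genes were at like levels per kb, and in dLG and VPM Lhx9 was far above Lhx2. The length used takes in all annotated exons of a gene, 9.494 kb for Lhx9 and 4.393 kb for Lhx2. Which isoforms these neurons use was not tested. In CPM, Lhx9 (167 to 198) stood above Lhx2 (58.8 to 91.2) in MGv too.

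Prox1, known from the birth and differentiation of neurons in several brain regions, was at 109, 137, 165 and 140 CPM in VPM, 72.5, 95.1, 47.3 and 85.7 CPM in dLG and 13.1, 12.4 and 4.08 CPM in MGv. The MGv libraries were lowest and the VPM libraries highest, with no overlap. Prox1 was 13.9-fold higher in VPM than in MGv (3.79 ± 0.36 SE, edgeR adjusted p = 1.67e-05) and 7.56-fold higher in dLG than in MGv (2.92 ± 0.35 SE, edgeR adjusted p = 9.46e-05). The difference between dLG and VPM was 1.83-fold (-0.88 ± 0.28 SE, edgeR adjusted p = 0.0805), and it passed the threshold in 15 of 24 alternatives. It was lost without dLG replicate 1 (0.18), dLG replicate 3 (0.197), dLG replicate 4 (0.125), VPM replicate 2 (0.158), VPM replicate 3 (0.13) or VPM replicate 4 (0.129), these being edgeR adjusted p-values. Prox1os, on the other strand of the same locus, was at 20.4 ± 5.9 CPM in dLG, 30 ± 15.5 in VPM (SD, n = 4 each) and 0.814 ± 0.827 in MGv (SD, n = 3), and in MGv replicate 3 it held 0 counts. Whether counting used strand is not given, so these counts cannot be told apart from Prox1 RNA of the same locus.

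Etv1, also known as ER81 and a marker of cortical layer 5 neurons, was nearly silent in dLG, at 0.426, 0.516, 0.381 and 0.382 CPM, which is 7 to 12 counts a library. In VPM it was at 16.8, 11.1, 8.87 and 6.99 CPM and in MGv at 6.24, 5.88 and 22.3 CPM. All dLG libraries were far below all others. Etv1 was 25.2-fold higher in VPM than in dLG (-4.65 ± 0.50 SE, edgeR adjusted p = 5.26e-05) and 26.2-fold higher in MGv than in dLG (-4.71 ± 0.51 SE, edgeR adjusted p = 4.43e-05). Only 0.239% and 0.754% of all genes tested had a larger absolute log2 fold change in these contrasts. The fold between dLG and MGv rested in part on MGv replicate 3, without which it was 13.9 (-3.8 ± 0.37 SE, edgeR adjusted p = 7.25e-05), with 1.46% of all genes farther from 0. VPM and MGv overlapped and did not differ beyond the spread (-0.06 ± 0.43 SE, interval -1.04 to 0.92, edgeR adjusted p = 0.949). MGv replicate 3 set much of the MGv mean of 11.5 ± 9.35 CPM (SD, n = 3), which was 6.06 CPM without it, and the log2 difference between VPM and MGv was then 0.85 with edgeR adjusted p = 0.159. Cortical neuron markers summed to at most 2.45 CPM in dLG, 3.35 CPM in VPM and 5.15 CPM in MGv.

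Set against each other per exon length, the 7 genes formed a different order in each nucleus. In dLG the order was Lhx9 (57.1 CPM per kb), Tcf7l2 (53.5), Lef1 (40.5), Gbx2 (13.5), Prox1 (8.96), Lhx2 (4.15) and Etv1 (0.0321). Only the steps from Lef1 to Gbx2 and from Lhx2 to Etv1 were free of overlap between libraries. Compared within each library, the step from Lhx9 to Tcf7l2 held in 3 of 4 dLG libraries and every other step in all 4. In VPM it was Tcf7l2 (60.6 CPM per kb), Lef1 (35.3), Lhx9 (25), Prox1 (16.4), Gbx2 (16.2), Lhx2 (1.71) and Etv1 (0.824), where Prox1 overlapped Gbx2 and Lhx2 overlapped Etv1. Within libraries Prox1 was above Gbx2 in 2 of 4 and Lhx2 above Etv1 in 3 of 4. In MGv it was Gbx2 (140 CPM per kb), Tcf7l2 (133), Lef1 (21.5), Lhx9 (19), Lhx2 (17.5), Prox1 (1.18) and Etv1 (0.862), and Gbx2 overlapped Tcf7l2, Lef1 overlapped Lhx9, Lhx9 overlapped Lhx2 and Prox1 overlapped Etv1. These overlapping steps held within 2, 2, 1 and 2 of the 3 MGv libraries, in the order given. By this level, Gbx2 and Tcf7l2 were in the top 2.36% and 2.53% of 15901 genes in MGv, and Gbx2 was in the top 22% in dLG and 19.8% in VPM. The exon length of Gbx2 includes the 43.45% that overlaps D130058E05Rik. How reads there were counted is not stated, so its level per kb and its rank are uncertain to that extent. Tcf7l2 and Lef1 kept within the top 15.8% of genes in each nucleus.

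**Figure D3:**
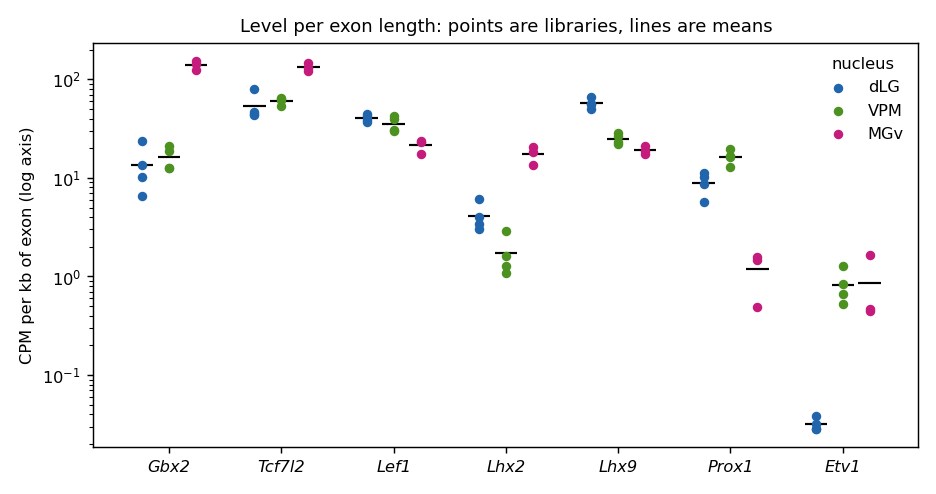
Level of the 7 genes in CPM per kb of exon (log axis) by nucleus; points are libraries and lines are means. Levels run from 0.0321 CPM per kb for Etv1 in dLG to 140 CPM per kb for Gbx2 in MGv, and Gbx2 has rank 4 in dLG and rank 1 in MGv, while Lhx9 has rank 1 in dLG and rank 4 in MGv.

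Markers of other cell types moved with some of these differences. The oligodendrocyte lineage list summed to 12.6 to 30.3 CPM in dLG, 32.7 to 43.4 CPM in VPM and 75.2 to 85.9 CPM in MGv, the nucleus in which Gbx2, Tcf7l2 and Lhx2 were enriched. Most of it was Mbp, a myelin gene whose locus also gives transcripts in neurons, at 66.4 ± 4.61 CPM in MGv (SD, n = 3). Of its 6 genes 3 were tested, and 2 of these were called higher in MGv than in dLG, against 7.49% of all genes. The same number were called higher in MGv than in VPM, against 8.56% of all genes. The lineage factor Olig2 was at 0 in all 3 MGv libraries. The astrocyte list summed to 57 to 140 CPM in dLG, 86.8 to 151 CPM in VPM and 76.2 to 192 CPM in MGv, so the nuclei overlapped. Here 6 of the 7 genes were tested. Called higher in MGv were 2 against dLG (Slc1a3 and Aldoc) and 2 against VPM (Slc1a3 and Aqp4), beside the same 7.49% and 8.56%. The glutamate transporter gene Slc1a3 was at 72.5 ± 23.8 CPM in MGv (SD, n = 3) against 6.35 ± 7.83 in dLG and 7.15 ± 3.25 in VPM (SD, n = 4 each), and Gfap was at 0 in dLG and at most 0.0335 CPM on average elsewhere. The glycolytic enzyme gene Aldoc was also called higher in VPM than in dLG, at 6 ± 4.12 CPM in dLG, 34.5 ± 8.29 in VPM (SD, n = 4 each) and 18 ± 1.46 in MGv (SD, n = 3). The other genes tested, Fabp7, Gja1 and Aldh1l1, were not called in any contrast. On average, most of the dLG sum lay outside Slc1a3 and Aldoc. The part of glial RNA in the levels of the 7 genes was not tested.

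Habenula markers were checked because Tcf7l2 is also a habenula gene. The list of 8 genes summed to 23.8 to 45.4 CPM in dLG, 22.9 to 28.4 CPM in VPM and 33.2 to 51.4 CPM in MGv, so MGv stood above VPM and overlapped dLG. Gng8, a G protein subunit gene of the habenula, was at 21.4 ± 11.7 CPM in MGv (SD, n = 3) against 1.93 ± 1.32 in dLG and 5.04 ± 3.13 in VPM (SD, n = 4 each), called in both contrasts (edgeR adjusted p = 0.000778 and 0.0155). Nr4a2 was called higher in MGv than in VPM (edgeR adjusted p = 0.075), and Chrna3, which held most of the sum in dLG and VPM, was called higher in dLG than in MGv (edgeR adjusted p = 0.0403). Of the 8 genes 5 were tested. Between dLG and MGv 1 was called on each side, against 16.1% of all genes in either direction. Between VPM and MGv 2 were called, both higher in MGv, against 19.0%. Median log2 fold changes were 0.35 (dLG minus VPM), -0.75 (dLG minus MGv) and -1.62 (VPM minus MGv), against 0, 0.02 and 0.02 over all genes. Chrnb4 was higher in MGv but not called (dLG minus MGv -1.54 ± 0.63 SE, edgeR adjusted p = 0.146, and VPM minus MGv -1.62 ± 0.63 SE, edgeR adjusted p = 0.111). The defining factor Pou4f1 was at 0.321 to 0.432 CPM on average in the 3 nuclei, Gpr151 averaged no more than 0.125 CPM, and Irx1 was at 0 in MGv. The part of habenula cells in the levels of Gbx2, Tcf7l2 and Lhx2 was not tested.

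For the LIM cofactors, the partners of Lhx2 and Lhx9, all 10 genes of the list were tested. Between dLG and VPM 1 was higher in dLG and 2 in VPM, between dLG and MGv 3 were higher in MGv and none in dLG, and between VPM and MGv 1 was higher in VPM and 4 in MGv. These counts stand beside 10.7%, 16.1% and 19.0% of all genes called in either direction, which also are the background for the lists that follow. The median log2 fold changes were -0.13, -0.33 and -0.58, against 0, 0.02 and 0.02 over all genes. Ldb2, the scaffold that bridges LIM-homeodomain factors, was at 250, 265 and 314 CPM in MGv, 19.4, 46.1, 14.3 and 19.5 CPM in dLG and 38.1, 37.6, 17.1 and 33.1 CPM in VPM. The MGv libraries were far above the rest (dLG minus MGv -3.47 ± 0.36 SE, edgeR adjusted p = 3.02e-05, and VPM minus MGv -3.13 ± 0.35 SE, edgeR adjusted p = 6.25e-05). Ldb1, its relative, was at 22.5 to 30.1 CPM on average and was not called in any contrast.

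Ssbp2, a single-stranded DNA-binding protein that stabilises Ldb complexes, was stepped, with libraries of 13 to 18.2 CPM in dLG, 31.7 to 41.8 CPM in VPM and 57 to 111 CPM in MGv, and all 3 contrasts were called (edgeR adjusted p from 8.72e-06 to 0.00209). Lmo4, a LIM-only protein that competes for Ldb, was instead high in VPM. It was at 93, 67.8, 66.2 and 62.9 CPM in VPM, 14.1 to 16.6 CPM in dLG and 8.43 to 14 CPM in MGv (VPM minus MGv 2.7 ± 0.21 SE, edgeR adjusted p = 2.76e-06, and dLG minus VPM -2.27 ± 0.18 SE, edgeR adjusted p = 4.79e-06). VPM, where Lmo4 was highest, was the nucleus with the least Lhx2. Lmo2 was low throughout and highest in MGv, at 11.6 ± 0.58 CPM (SD, n = 3).

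**Figure D4:**
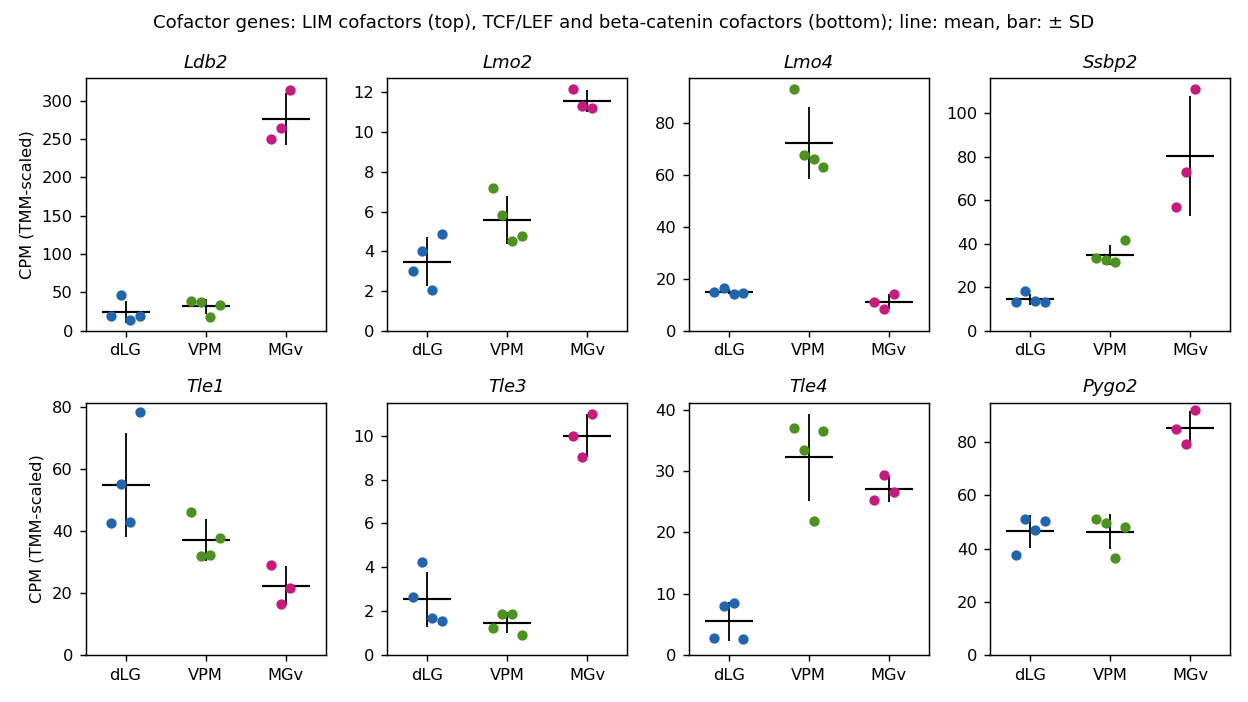
Level in CPM (TMM-scaled, linear axes from 0) of 4 LIM cofactor genes (top) and 4 genes of TCF/LEF and beta-catenin cofactors (bottom) by nucleus; points are libraries, lines means and bars ± SD. Ldb2 (250 to 314 CPM), Lmo2, Ssbp2, Tle3 and Pygo2 are highest in the MGv libraries, Lmo4 is highest in VPM, and Tle4 is lowest in dLG.

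Among other LIM-homeodomain genes, 1 of 10 had enough counts to be tested. That was Isl1, a factor of motor and sensory neurons, which falls below the level set for naming and was picked after its values were seen. It was at 0 in the 4 dLG libraries, 0.643 ± 0.499 CPM in VPM (SD, n = 4) and, in MGv, 1.04 ± 0.397 CPM (SD, n = 3). Of the 4 close relatives of Gbx2, Prox1 and Etv1, only Prox2 was tested, and it too was picked with its values seen. It was at 3.11 ± 1 CPM in dLG, 2.43 ± 0.924 in VPM (SD, n = 4 each) and 0.926 ± 0.522 in MGv (SD, n = 3), and was called lower in MGv in both contrasts (edgeR adjusted p = 0.0416 against dLG and 0.0942 against VPM).

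Of the relatives and partners of Tcf7l2 and Lef1, 10 of 12 genes were tested. The remaining relatives, Tcf7 and Tcf7l1, held at most 6 counts and 1 count in a library, so Tcf7l2 and Lef1 carried nearly all counts of their family. Beta-catenin itself, Ctnnb1, was at 358 ± 20.8 CPM in dLG, 437 ± 72.9 in VPM (SD, n = 4 each) and 368 ± 8.92 in MGv (SD, n = 3) and was not called. Between dLG and MGv 1 gene was higher in dLG and 5 in MGv, with a median of -0.52 against 0.02 over all genes. Between VPM and MGv 1 was higher in VPM and 3 in MGv (median -0.25 against 0.02), and between dLG and VPM 1 was higher in VPM and none in dLG (median 0.04 against 0), or 3 higher in VPM without the libraries of low Hspa8.

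The Tle corepressors differed in direction among themselves. Tle4 was at 2.8, 7.99, 8.44 and 2.67 CPM in dLG, 37, 33.5, 21.9 and 36.5 CPM in VPM and 25.2, 29.4 and 26.5 CPM in MGv, with no overlap of dLG with the others. The log2 fold change was -2.55 ± 0.35 SE from VPM (edgeR adjusted p = 0.000418) and -2.30 ± 0.36 SE from MGv (edgeR adjusted p = 0.000872). Tle3 was at 10 ± 0.972 CPM in MGv (SD, n = 3) against 2.53 ± 1.24 in dLG and 1.47 ± 0.474 in VPM (SD, n = 4 each), called in both contrasts. Tle1 was the 1 gene of the list that was lower in MGv, at 22.4 ± 6.37 CPM (SD, n = 3) against 54.8 ± 16.8 in dLG and 37.1 ± 6.67 in VPM (SD, n = 4 each), and its call against VPM (edgeR adjusted p = 0.0716) held in 16 of 24 alternatives and was lost without MGv replicate 2, MGv replicate 3, VPM replicate 1 or VPM replicate 4. Pygo2, a chromatin reader in the beta-catenin complex, was at 85.5 ± 6.45 CPM in MGv (SD, n = 3), above dLG with 46.6 ± 6.21 CPM (SD, n = 4, edgeR adjusted p = 0.00195).

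Genes that beta-catenin signalling commonly induces, as feedback on the pathway, gave 8 tested of 12. In dLG 3 were higher than in VPM and none lower (2 higher in VPM without the libraries of low Hspa8), between dLG and MGv 2 were higher on each side, and between VPM and MGv 1 was higher in VPM and 4 in MGv. Median log2 fold changes were 0.26, -0.07 and -0.12, against 0, 0.02 and 0.02 over all genes. Nkd1, an inhibitor of Wnt signalling, was at 30.9, 39.4, 36.1 and 49.6 CPM in dLG, 18.4, 20.6, 19.1 and 18.4 CPM in VPM and 63.4, 64.5 and 50.2 CPM in MGv. Its order of nuclei, MGv then dLG then VPM without overlap, was that of Lhx2, and all 3 contrasts were called (edgeR adjusted p from 3.33e-05 to 0.0312), that of dLG and MGv being lost without MGv replicate 1 or MGv replicate 2.

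Wif1, a secreted Wnt inhibitor, was highest in dLG, at 25.2 ± 10.5 CPM against 4.45 ± 1.76 in VPM (SD, n = 4 each) and 3.54 ± 0.557 in MGv (SD, n = 3). Lgr5, a receptor for R-spondins, was lowest in MGv, at 6.02 ± 1.52 CPM (SD, n = 3) against 13.5 ± 2.16 in dLG and 12.4 ± 1.37 in VPM (SD, n = 4 each), and both differences were called. Tnfrsf19, a receptor of the tumour necrosis factor family, was at 57, 51.3 and 31.1 CPM in MGv, 20.1 to 23.7 CPM in dLG and 29.8 to 36.7 CPM in VPM. It was called higher in MGv than in dLG (edgeR adjusted p = 0.00222), but MGv replicate 3 lay within the VPM range, and the call between VPM and MGv (edgeR adjusted p = 0.0823) held in 12 of 24 alternatives, among others not without MGv replicate 1, MGv replicate 2, dLG replicate 1, VPM replicate 1, VPM replicate 2, VPM replicate 3 or the libraries of low Hspa8. The most used readout of the pathway, Axin2, was too low to be named by the rule and was picked with its values seen. It was at 3.87 ± 0.813 CPM in MGv (SD, n = 3), 1.93 ± 0.667 in dLG and 0.791 ± 0.238 in VPM (SD, n = 4 each), called between dLG and VPM and between VPM and MGv (edgeR adjusted p = 0.0614 and 0.00241). The list thus did not move as one, with Nkd1 highest in the nucleus with the most Tcf7l2 and Lgr5 lowest there like Lef1.

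Features of relay neurons were tested for all 10 genes. Between dLG and VPM 4 were higher in dLG and 3 in VPM, between dLG and MGv 2 on each side, and between VPM and MGv 3 in VPM and 4 in MGv, with medians of -0.06, -0.13 and 0.04 against 0, 0.02 and 0.02. Foxp2, a forkhead factor, was at 728 ± 49.6 CPM in MGv (SD, n = 3), 408 ± 40.4 in VPM and 268 ± 69.8 in dLG (SD, n = 4 each), called in all 3 contrasts, of which that of dLG and VPM (edgeR adjusted p = 0.0324) was lost without dLG replicate 1, dLG replicate 4 or VPM replicate 2. Rora, a nuclear receptor of relay neurons, ran the other way, at 1280 ± 309 CPM in dLG, 709 ± 111 in VPM (SD, n = 4 each) and 539 ± 60.9 in MGv (SD, n = 3), and both differences from dLG were called. Calb2, a calcium-binding protein, was at 328 ± 28.5 CPM in MGv (SD, n = 3), 189 ± 54.4 in dLG and 93.7 ± 10.4 in VPM (SD, n = 4 each), in the same order of nuclei as Lhx2 and called in each contrast. The serotonin transporter gene Slc6a4, which relay neurons of newborns express for a time, was highest in VPM like Prox1, at 268 ± 101 CPM (SD, n = 4) against 55.2 ± 21.5 in dLG (SD, n = 4) and 82.9 ± 29.5 in MGv (SD, n = 3), with both differences called (edgeR adjusted p = 0.000705 and 0.00701).

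For each member the 3 genes whose log2 CPM followed it most closely were taken from 10474 genes over the same 11 libraries, as a description in which all points share their library and its depth. An r over all libraries also takes in the differences between the nuclei. For Gbx2 they were Ldb2 (Pearson r = 0.98), the neuropeptide gene Nts (0.979) and the RNA-binding protein gene Celf4 (0.976). For Tcf7l2 they were Sphkap (0.986), again Ldb2 (0.985) and Kazn (0.982). With each nucleus centred on its own mean, r between Ldb2 and Tcf7l2 was 0.91 and between Ldb2 and Gbx2 0.77, but 2 libraries of low Hspa8 stood out for Ldb2, dLG replicate 2 with the highest dLG value and VPM replicate 3 with the lowest VPM value. Without the 3 libraries of low Hspa8 these values were 0.67 and 0.47 over 8 libraries. Nts was at 136 CPM on average in MGv against 3.18 in dLG and 2.96 in VPM.

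The genes most like Lef1 were Hspa12b (r = 0.955), Plekha7 (0.939) and Lhfp (0.934), and those most like Lhx2 were Rnf185 (0.98), Fosb (0.972) and Nek6 (0.968). Within nuclei these r were 0.81, 0.68 and 0.62 for Lef1 and 0.82, 0.93 and 0.59 for Lhx2. Without the libraries of low Hspa8 that of Nek6 was -0.35, and the others stayed at 0.54 or above. Fosb, an early response gene, was at 38.5 CPM in MGv, 12.2 CPM in dLG and 2.56 CPM in VPM on average. For Lhx9 they were Igfbpl1 (0.975), Sorcs1 (0.972) and the heparan sulfate enzyme gene Hs6st2 (0.969), which averaged 588 CPM in dLG against 40.9 in VPM and 28.9 in MGv. These genes followed Lhx9 between the nuclei far more than within them, where r was 0.29, 0.34 and 0. Without the libraries of low Hspa8 the latter values were 0.79, 0.04 and -0.48. Nearest to Prox1 were Ppp5c (0.98), its antisense neighbour Prox1os (0.977, with 0.93 within nuclei and 0.94 without the libraries of low Hspa8) and the neurotrophin gene Ntf3 (0.974), at 29.4 CPM in VPM, 7.92 in dLG and 0.138 in MGv. The r of Prox1os may include Prox1 RNA counted as Prox1os, which was not tested. Nearest to Etv1 were Nxph1 (0.98), Atxn7l1 (0.97) and the monoamine oxidase gene Maoa (0.968), which averaged 46 CPM in VPM, 42.7 in MGv and 7.25 in dLG. Their r with Etv1 within nuclei was 0.69, 0.8 and 0.49. Among the members, Gbx2 and Tcf7l2 were the closest pair (r = 0.96). Within nuclei their r was 0.74, and -0.07 without the 3 libraries of low Hspa8, so that value rested on those libraries.

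The DNA before the start sites was searched for the letters that TCF/LEF factors (CTTTGA), homeodomains (TAATTA) and ETS factors (GGAAGT) prefer, since the members could in principle be targets of each other. Sequences were RefSeq's for GRCm38.p6, 250 bases before each start, on both strands, and the 7 genes had 14 such starts. CTTTGA was found before 2 of the 14, against 13.8% of 32851 starts, TAATTA before none of them against 4.8%, and GGAAGT before 1 against 19.7%. The matches to CTTTGA were all its reverse complement, given here in capitals within 30 bases of the plus strand. They lay before a start inside Lef1 (chr3:131156102-131156131 and chr3:131156162-131156191) and before a start inside Etv1 (chr12:38779898-38779927), within the annotated span of each gene.
Lef1, 177 bases before the start: taaaatacatggTCAAAGgaaaataggtat
Lef1, 117 bases before the start: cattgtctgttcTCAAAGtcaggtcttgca
Etv1, 169 bases before the start: gtggactccgggTCAAAGgtagagaaaagg
The match to GGAAGT lay 9 bases before the same start of Lef1. A match describes these letters only and was not tested for binding.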

How the data were processed

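The deposited files hold raw counts per gene, 1 file for each of 11 libraries, which the authors made from 50-base single reads. Per the labels the processing tools include Trim Galore 0.6.1, STAR 2.7.0d and featureCounts of Subread 1.6.4 with build mm10. Whether counting used strand is not given in the sources used here. Gene names, positions and exon lengths came from GENCODE M21. Groups follow the labels' tissue. Counts were fitted in R 4.3.3 with edgeR 4.0.16 (filterByExpr, TMM, quasi-likelihood test) over all 11 libraries without covariates, in 3 contrasts and 1 test for any difference, with Benjamini-Hochberg adjustment over 15907 genes and a threshold of 0.1. The method was tested on simulated data. Correlations used log2 CPM with a prior count of 2. Members, gene lists and the 3 libraries of low Hspa8 were chosen with earlier results of these data known. By rule, the text names the members, genes overlapping them, the 3 genes most like each, and up to 4 called genes a list with at least 5 CPM in some nucleus. Other genes, such as single cell type markers, Ldb1, Ctnnb1, Tcf7, Tcf7l1, Isl1, Prox2 and Axin2, were named outside this rule. P-values measure the spread between pools of 4 brains. Intervals and floors cover counting or replicate error only. Alternatives were DESeq2 1.42.0, limma 3.58.1 (voom), other scalings, filters, thresholds, a replicate block, thinned counts and left-out libraries.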

Additional observations from a re-analysis of the deposited data

Results flagged for a closer look

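The level of Tcf7l2 in dLG replicate 2, 696 CPM, stood apart from the other 3 dLG libraries, which lay at 382 to 406 CPM. The gap to the nearest library was 0.923 of the whole range, above Dixon's 95% critical value for 4 libraries. This was the only such value among 14 sets of 4 libraries checked, a rule by which chance marks about 1 set in 20. The same library was the highest of the dLG libraries for Gbx2, Lhx2 and Prox1, and it is among the 3 with low Hspa8.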

How the results depend on the processing

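Over 501 recomputed log2 fold changes of the 7 genes, 470 kept their direction and side of the threshold, 22 no longer passed, 4 newly passed and 5 changed sign. The number of genes that passed ranged from 3 to 6 between dLG and VPM, 6 to 7 between dLG and MGv and 4 to 6 between VPM and MGv. All sign changes were of Etv1 between VPM and MGv, called in none of 23 alternatives, with 0.68 by limma voom, 0.24 with the replicate block, and from -0.36 to 0.85 when each library was left out in turn. Lost calls were those of Lhx9 between VPM and MGv, Prox1 between dLG and VPM, and Lef1 in its 2 called contrasts where an absolute log2 fold change over 1 was required. Gained calls were Tcf7l2 between dLG and VPM (limma voom -0.38, and 2 left-out sets given above) and Gbx2 there. Over all alternatives the adjusted p between dLG and VPM ran from 0.07 to 0.973 for Gbx2, 0.0115 to 0.872 for Tcf7l2 and 1.45e-05 to 0.197 for Prox1, and between VPM and MGv from 0.033 to 0.215 for Lhx9 and 0.159 to 1 for Etv1. With at least 10 counts in every library Etv1 could not be fitted. Scaling by total counts gave edgeR adjusted p = 0.16 for Lhx9 and 0.123 for Prox1 in those contrasts. Counts over all genes between dLG and VPM were 1704, but 4414 by limma voom, 922 with an absolute log2 fold change over 1, 2603 without the libraries of low Hspa8, 1105 without VPM replicate 1 and 1103 without VPM replicate 2. With an absolute log2 fold change over 1 they fell from 2562 to 1552 between dLG and MGv and from 3016 to 1559 between VPM and MGv, and for any difference limma voom gave 6181 against 3847. The list counts and within-nucleus correlations without the libraries of low Hspa8 were chosen after seeing the data. The labels do not say that equal replicate numbers share brains, and 4 of 11 libraries correlated best with their own number (mean r of same-number pairs 0.016). These were replicates 1 and 4 of dLG and VPM, with r = 0.185 for number 1 and 0.483 for number 4. The highest r between libraries of unlike number was 0.268. Whether these pairs share brains or handling was not tested. With the replicate block the edgeR adjusted p of Lhx9 between VPM and MGv was 0.103, and no other call of the 7 genes changed. The causes were not tested. Levels per exon length are in another unit and were set beside CPM only for Lhx2 and Lhx9 in MGv.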
